A study of Mus musculus with 6 samples.

Results

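The constitutive proteasome is the protease complex that most mouse cells carry, and the genes followed here are its subunit genes. They were chosen by name, as protein-coding genes with a symbol of the Psma, Psmb, Psmc or Psmd series and a number, without Psmb8, Psmb9 and Psmb10, which encode the catalytic subunits of the interferon-inducible immunoproteasome. The rule gave 36 of the 43629 genes in the table. Of these, 16 belong to the core particle (8 alpha ring and 8 beta ring genes) and 20 to the cap (6 ATPases and 14 non-ATPase genes). Transcripts were counted in B16F10 melanoma tumours, which are grafts of a single mouse melanoma line under the skin of 8-week-old female C57BL/6J mice, with dosing daily until control tumours reached 2000 mm3. Each treatment gave 1 library from pooled tumours, so animals within a treatment cannot be told apart and no pair of pools had a replicate check. The control pool received DMSO + control IgG, and the anti-PD-1 pool received DMSO + anti-PD-1, an antibody that blocks an inhibitory receptor of T cells. A pool given AZD5363 + MK1775 + control IgG and another given AZD5363 + MK1775 + anti-PD1 received inhibitors of the kinases AKT and WEE1. The last 2 pools received KS100, an aldehyde dehydrogenase inhibitor, as KS100 + control IgG or KS100 + anti-PD-1. The treatment labels of the inhibitor pools do not name DMSO.

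The proteasome degrades proteins tagged with ubiquitin. Outer alpha rings gate a barrel whose inner beta rings hold the proteolytic sites: Psmb5 carries the chymotrypsin-like site, Psmb6 the caspase-like site and Psmb7 the trypsin-like site. In the cap, a ring of ATPases (Psmc genes) unfolds the substrate and threads it into the core, and non-ATPase subunits (Psmd genes) bind ubiquitin, remove it and hold the cap together. Tumour cells make many proteins and depend heavily on this complex, and under interferon the catalytic subunits of newly built cores are replaced by Psmb8, Psmb9 and Psmb10, which changes the peptides available for antigen presentation.

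Many proteasome genes are induced together by transcription factors that bind the antioxidant response element, so its core, TGACNNNGC, was searched on both strands of the promoter windows that RefSeq gives for GRCm38.p6 (250 bases before to 50 bases after a gene's start). Windows were found for 29 of the 36 genes, 31 windows in all, and none was present for Psmb7. The core was present in 5 of the 31 windows (16.1%) and in 12.4% of all 32851 windows of the same length. The CCAAT box, searched as CCAAT on both strands, was in 12 of the 31 windows (38.7%) and in 37.4% of all windows. The element is shown in 3 stretches because 2 of its carriers, Psmb5 and Psmb6, encode catalytic subunits whose values are compared further on. Each runs 5′ to 3′ on the gene's strand with the element in capitals and the bases around it, none past the RefSeq start: Psmb5 lies at chr14:54618009-54618067 on the minus strand, Psmb6 at chr11:70525323-70525356 on the plus strand and Psmd9 at chr5:123228134-123228189 on the plus strand.
Psmb5: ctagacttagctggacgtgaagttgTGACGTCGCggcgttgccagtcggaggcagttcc
Psmb6: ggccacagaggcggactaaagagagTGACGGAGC
Psmd9: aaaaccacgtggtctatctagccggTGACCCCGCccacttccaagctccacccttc
The element ended 38 bases before the start of Psmb5 and 22 bases before that of Psmd9, and it directly adjoined the start of Psmb6. Psmc6 and Psmd12 carried it on the other strand. A match to these letters is a description of the window and not evidence of binding.

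Depth differed widely, and it limits what can be said of the inhibitor pools. The control library totalled 1591673 counts and the anti-PD-1 library 1002088. The pool given both kinase inhibitors and the antibody, called the combination pool from here on, totalled 338474, and the other 3 between 25521 and 44748. The library sizes used for ratios (TMM, a scaling by genes of moderate change) were, relative to control, 0.648 for anti-PD-1, 0.0180 for AZD5363+MK1775, 0.132 for the combination, 0.0217 for KS100 and 0.0113 for KS100+anti-PD-1. All 4 inhibitor pools also carried more mitochondrial RNA, 13.2% to 19.8% of counts against 1.29% and 1.89% in the others. In the combination pool 27.4% of counts fell on mt-Rnr1, mt-Rnr2 and Gm42418, which collect ribosomal RNA, against 0.0567% to 5.01% elsewhere. Of these, mt-Rnr1 and mt-Rnr2 also enter the mitochondrial share, so the 2 shares overlap. Cell type markers differed too. The 8 melanocyte markers summed to 34130, 18299, 271, 3514, 211 and 64 counts. Such series of 6 values always start with control and anti-PD-1, go on with AZD5363+MK1775 and the combination pool, and end with KS100 and KS100+anti-PD-1. All 8 markers were detected in the first 2 pools and the combination pool, and Tyr was at 0 in the other pools. The 6 skeletal muscle markers summed to 79, 676, 0, 2523, 9 and 17 counts, the 6 fibroblast markers to 184, 1614, 2, 151, 18 and 11, and the 8 macrophage markers to 176, 306, 0, 124, 8 and 2. Erythroid markers summed to 911, 3655, 8, 22, 6 and 2 counts and endothelial markers to 277, 386, 1, 40, 17 and 9. The 8 T cell markers summed to only 9, 7, 0, 19, 1 and 2 counts, and Cd4 and Trac were at 0 in the 3 deepest pools. In such bulk samples fewer cells of a type and less RNA per cell cannot be told apart.

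The label held for nearly all of the set in the control pool. Psmb5, Psmb6 and Psmb7, its defining members, had 362, 663 and 247 counts there, and 34 of the 36 genes had at least 20 counts, from 43 for Psmb2 to 1438 for Psma2 with a median of 340.5. The exceptions were tissue-restricted forms: Psma8, the testis form of an alpha subunit, had a single count, in the KS100 pool, and Psmb11, the thymic cortex form of a catalytic subunit, had none in any pool. A count of 0 allows up to 3 counts, which is 1.89 CPM (counts scaled to a common total of 1e6) in control and 118 CPM in the shallowest pool. Psmd5, Psmd9 and Psmd10 carry the symbol but act as chaperones of cap assembly and are not part of the finished complex. The number of the 36 genes detected was 34, 34, 28, 34, 31 and 16 in the order above, and 14 were detected in every pool.

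Together the 36 genes took a smaller share of the tumour's messenger RNA in the KS100 pools than in the others. They made up 0.948% (95% exact binomial interval 0.933 to 0.964) of the counts of nuclear protein-coding genes in control, from 14595 counts. The share was 0.878% (0.860 to 0.897) with anti-PD-1, 0.875% (0.756 to 1.01) with AZD5363+MK1775 and 0.790% (0.753 to 0.828) in the combination pool. It was 0.607% (0.525 to 0.697) with KS100 and 0.276% (0.199 to 0.373) with KS100+anti-PD-1, from 198 and 42 counts. The interval of the KS100+anti-PD-1 pool lay below that of every other pool, and that of KS100 below the remaining 4. Intervals here and below cover counting error only, and with 1 library per treatment they say nothing of the spread between tumours. The counts carry no molecular identifiers, so repeated reads of 1 molecule cannot be told apart and the intervals may be too narrow. In the same 2 pools the melanocyte markers were at 0.285 and 0.166 times their control level, and protein-coding genes that were at 0 in both deep pools took 4.47% and 9.17% of counts. Their part in the lower share was not tested.

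**Figure D1:**
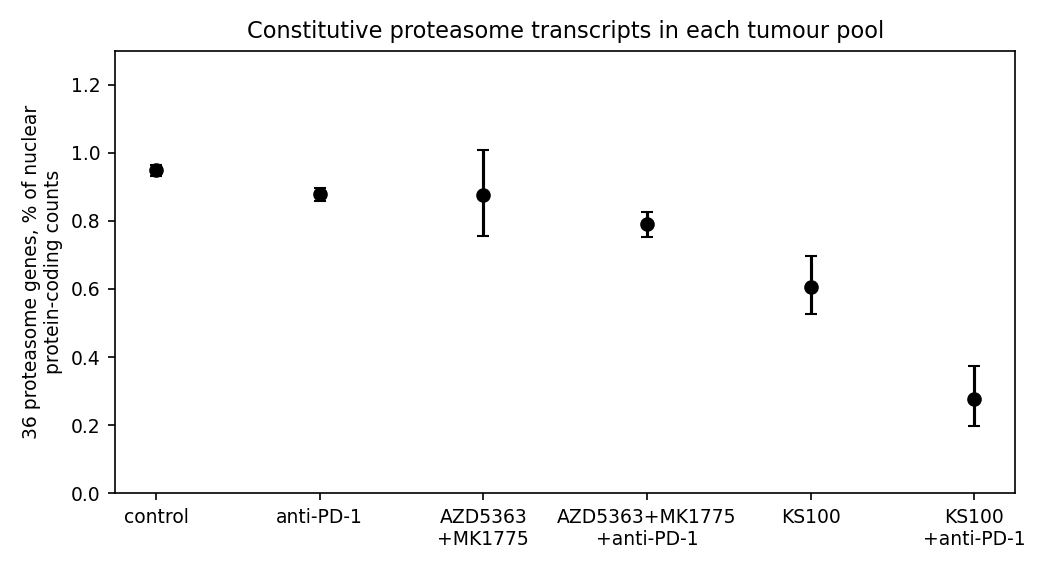
Share of nuclear protein-coding counts (percent, vertical axis) taken by the 36 constitutive proteasome genes in each of the 6 tumour pools. Points are single pools and bars are 95% exact binomial intervals; the share runs from 0.948% in control to 0.276% in the KS100+anti-PD-1 pool.

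How the counts divided between core and cap does not depend on library scaling, and among the 3 deepest pools it was farthest from control in the combination pool. Core genes held 53.2% (52.4 to 54.0) of proteasome counts in control, 48.8% (47.8 to 49.9) with anti-PD-1 and 39.1% (36.8 to 41.4) in the combination pool. These intervals did not overlap. The 3 shallow pools had core shares of 57.6% (50.3 to 64.7), 57.6% (50.4 to 64.6) and 59.5% (43.3 to 74.4), whose intervals all overlapped that of control. Of all proteasome counts the alpha ring held 27.0% (26.3 to 27.7) in control, 25.2% (24.3 to 26.1) with anti-PD-1 and 24.3% (22.3 to 26.4) in the combination pool. Of core counts alone it held 50.8% (49.6 to 51.9) in control, 51.5% with anti-PD-1 and 62.2% (58.5 to 65.9) in the combination pool. The beta ring, which holds the proteolytic sites, went from 26.2% (25.5 to 26.9) in control and 23.7% with anti-PD-1 to 14.7% (13.1 to 16.5) in the combination pool. The ATPases of the cap held 13.3% (12.8 to 13.9) in control, 13.9% with anti-PD-1 and 22.0% (20.1 to 24.0) in the combination pool. The non-ATPase genes held 33.5%, 37.3% and 38.9% in the same 3 pools. In the KS100+anti-PD-1 pool the alpha ring held 21 of 42 counts (34.2% to 65.8%), of which 9 were Psma3 and 6 Psma7, and the beta ring 9.52% (2.66 to 22.6). The combination pool is also the one with the most ribosomal and muscle RNA, and the part of these in its core-to-cap balance was not tested.

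**Figure D2:**
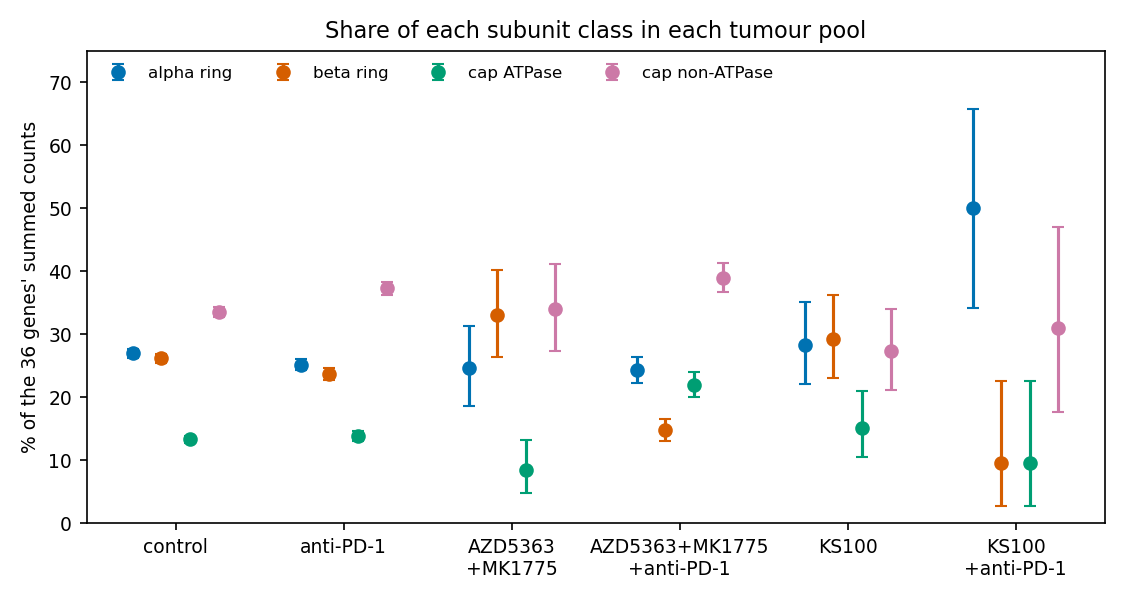
Share of the proteasome counts of each pool (percent, vertical axis) held by alpha ring, beta ring, cap ATPase and cap non-ATPase genes. Points are single pools and bars 95% exact binomial intervals; the beta ring part is 26.2% in control and 14.7% in the combination pool (AZD5363+MK1775+anti-PD-1), and the 3 shallow pools rest on 191, 198 and 42 counts.

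Single genes were compared between pairs of pools by size, with no p-value. The rule asked for 20 counts or more on either side of the pair, for a 2-fold difference or more after TMM scaling, up (higher) or down (lower), and for a 95% exact conditional interval of the ratio that did not reach back to 1.5-fold. Comparisons against control share that pool and are not independent of each other. The shares of all genes tested that are set beside the calls were taken with TMM only. Counts called with other scalings have no such share beside them and are not a result about the proteasome genes alone. With anti-PD-1, 0 of the 34 genes tested were called higher and 1 lower, beside 2.69% higher and 2.14% lower among all genes tested. The summed ratio of the 36 genes was 0.906 (0.882 to 0.930), against 0.983 (0.980 to 0.986) for 5566 other genes with control counts in the same range. These are the other genes of like counts named below, matched only by the range of 43 to 1438 control counts. Per gene they held fewer control counts, 1060050 in all against 14595 for the 36. A lower call in a shallow pool needs many control counts, so shares called there do not compare genes of equal depth. Core genes summed to 0.832 (0.801 to 0.864) of control, and 12 of 14 had a ratio below 1, with 7 intervals wholly below 1 and none above. In the same pool fibroblast markers were at 13.6 times control, muscle at 13.2, erythroid at 6.20, macrophage at 2.69, endothelial at 2.15 and melanocyte markers at 0.828, and their part in the core sum was not tested. Cap genes summed to 0.989 (0.952 to 1.03), a value that is slightly above 1 with the other scalings tried, and 6 of their 20 intervals lay above 1 and 6 below. Over all genes tested 16.8% of intervals lay above 1 and 16.2% below, against 6 and 13 of the 34 proteasome genes. The median log2 ratio was -0.14 for the proteasome genes and 0.00 for all genes tested.

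With AZD5363+MK1775, 1 of 34 genes was called higher and 1 lower, beside 1.65% and 1.28% of all genes tested. The summed ratio was 0.728 (0.628 to 0.839), close to the 0.775 (0.762 to 0.787) of the other genes of like counts, and it was 0.923 (0.796 to 1.06) when pools were scaled to nuclear protein-coding counts. The number called lower was 0 with that scaling, with DESeq2 size factors and with library totals. ATPases summed to 0.457 (0.261 to 0.745) and beta ring genes to 0.917 (0.703 to 1.18). With KS100, 0 of 34 were called higher and 1 lower, beside 4.50% and 1.86% of all genes tested, and the sum was 0.626 (0.541 to 0.720) against 0.843 (0.831 to 0.855) for other genes of like counts. Under KS100 the number called lower was 0 with DESeq2 size factors and with nuclear protein-coding totals, and 5 with library totals. With KS100+anti-PD-1, 0 were called higher and 7 lower, beside 4.59% and 2.86% of all genes tested. Its summed ratio was 0.255 (0.184 to 0.345) against 0.604 (0.590 to 0.618) for the other genes of like counts. In that pool 18 of the 34 genes tested were at 0.

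The combination pool had the most genes called in both directions: 5 of 34 higher and 8 lower against control, which is 14.7% and 23.5%. Among all genes tested 14.9% were called higher and 8.02% lower, and among the other genes of like counts 12.6% and 9.97%. With library totals the size of this pool was 0.213 of control in place of 0.132, which lowers the ratio of every gene alike. The split was then 2 higher and 13 lower. The sum over the 36 genes was 0.904 (0.859 to 0.950), against 1.09 (1.08 to 1.09) for other genes of like counts, and it was 0.559 (0.532 to 0.588) with library totals. Core genes summed to 0.664 (0.613 to 0.718). Cap genes summed to 1.18 (1.10 to 1.26), a direction that turned to 0.728 (0.682 to 0.777) with library totals. By class the sums were 0.814 (0.734 to 0.900) for the alpha ring, 0.509 (0.447 to 0.578) for the beta ring, 1.49 (1.33 to 1.67) for the ATPases (0.924 with library totals) and 1.05 (0.968 to 1.14) for the non-ATPase genes (0.650 with library totals). Against the anti-PD-1 pool, 6 of 34 were called higher and 5 lower, beside 14.0% and 8.11% of all genes tested, and the split was 3 higher and 12 lower with library totals. The summed ratio there was 0.998 (0.947 to 1.05), with ATPases at 1.59 (1.41 to 1.78) and the beta ring at 0.622 (0.544 to 0.709). With library totals the sum was 0.601 (0.570 to 0.633), and the ATPases turned to 0.954 (0.848 to 1.07).

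**Figure D3:**
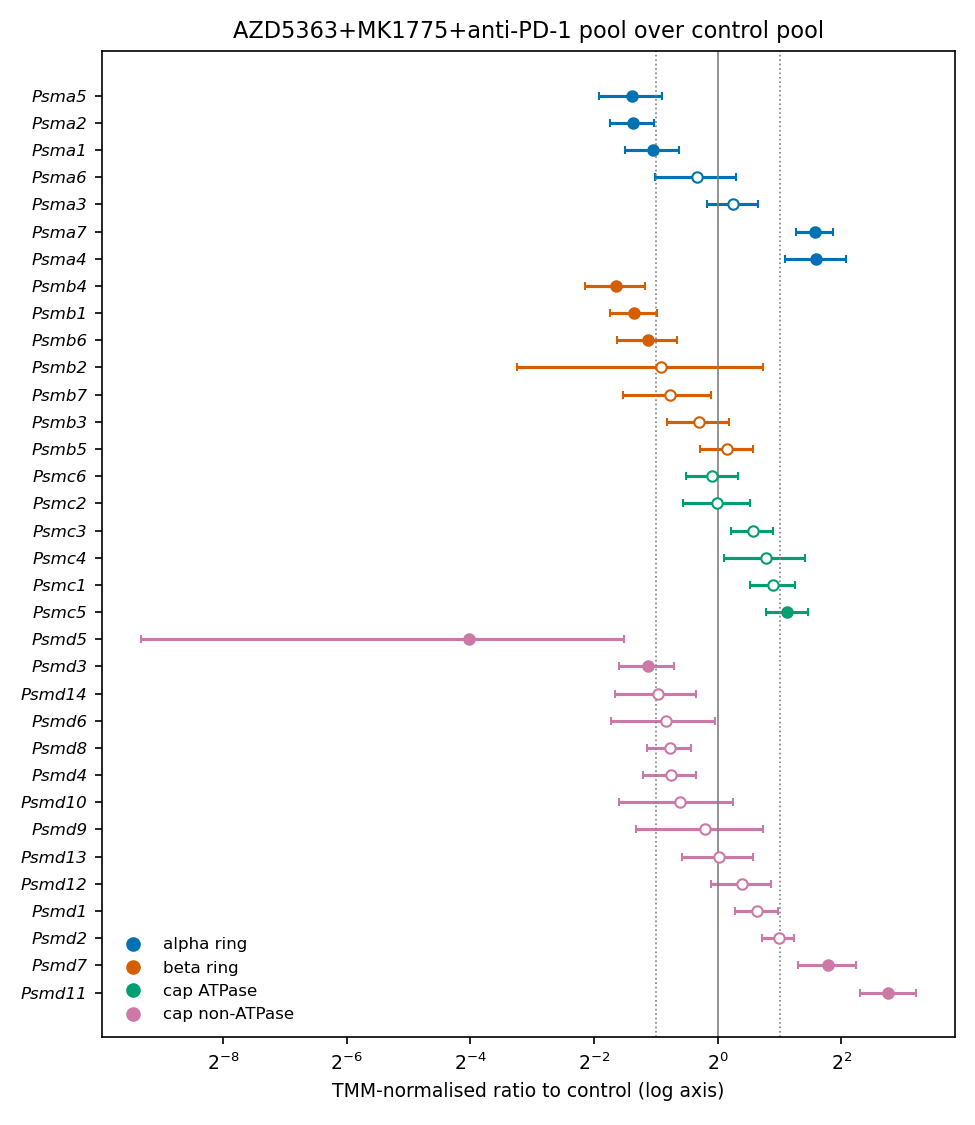
Ratio of the combination pool (AZD5363+MK1775+anti-PD-1) to control for the 34 proteasome genes tested, by class, on a log axis after TMM scaling, with 95% exact conditional intervals. Filled points are called higher or lower, dotted lines mark 2-fold either way; Psmd11 is farthest to the right at 6.74, and all beta ring genes but Psmb5 lie left of 1.

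Among the alpha ring genes, the best-counted, Psma2 and Psma1, were low in the combination pool while Psma4 and Psma7 were high. Psma2 (chromosome 13, GRCm38 positions 14613240 to 14674236) had 1438, 741, 9, 73, 13 and 1 counts. Given the library sizes, its scaled level was below control in every treated pool, and it was called lower with AZD5363+MK1775 at 0.348 (0.159 to 0.662), in the combination pool at 0.386 (0.301 to 0.488) and with KS100+anti-PD-1 at 0.0616 (0.00156 to 0.344). The AZD5363+MK1775 call was lost with DESeq2 size factors, library totals and nuclear protein-coding totals. Psma1 had 736, 425, 11, 47, 15 and 3 counts and, of the comparisons with control, was called lower only in that of the combination pool, at 0.485 (0.353 to 0.652). Psma5 had 695, 438, 10, 35, 7 and 0 counts, which gave 0.383 (0.264 to 0.537) in the combination pool. With KS100+anti-PD-1 it was at least 2.62-fold lower if a 0 stands for up to 3 counts, while its interval allowed a ratio up to 0.471. Pseudogenes match its end closely, so these values are uncertain. Limits given below as at least also rest on 3 counts, and the intervals allowed ratios up to 0.494 for Psmb6, 0.436 for Psmd3 and 0.509 for Psmd4. In the other direction, Psma7 (chromosome 2, 180036374 to 180042433) had 346, 153, 5, 135, 6 and 6 counts. With anti-PD-1 it was the lowest alpha gene at 0.683 (0.561 to 0.828), not called, and the combination pool was its highest, at 2.96 (2.41 to 3.63) times control and 4.34 (3.42 to 5.51) times the anti-PD-1 pool. Psma4 had 126, 90, 0, 50, 0 and 0 counts and a ratio of 3.01 (2.13 to 4.21) to control. The last 300 bases of Psma4 match a pseudogene, Gm6542, at 98.3% identity, and its exons overlap a gene on the opposite strand, so its single value is uncertain. With library totals neither Psma4 nor Psma7 was called higher than control. Psma3 and Psma6 were not called in any pair.

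The catalytic beta genes differed among themselves in the combination pool. Psmb5 (chromosome 14, 54614119 to 54618022), the chymotrypsin-like subunit, had 362, 239, 3, 53, 1 and 0 counts, or 227, 239, 113, 157, 22.4 and 0 CPM. After scaling, the ratio to control was 1.02 (0.862 to 1.20) with anti-PD-1 and 1.11 (0.817 to 1.49) in the combination pool, both intervals spanning 1, and the 2 KS100 pools were low. A pseudogene, Gm3375, matches the end of Psmb5 at 99.6% over 229 bases, so its single value is uncertain. Psmb6 (chromosome 11, 70525367 to 70527858), the caspase-like subunit, had 663, 374, 17, 40, 7 and 0 counts, or 416, 373, 638, 118, 156 and 0 CPM. It was called lower in the combination pool, at 0.458 (0.324 to 0.631) of control, and lower still against the AZD5363+MK1775 pool, at 0.322 (0.178 to 0.605), the latter call lost with TMM over all genes. With KS100+anti-PD-1 it was at least 2.50-fold lower. Psmb7 (chromosome 2, 38588036 to 38644087), the trypsin-like subunit, had 247, 117, 0, 19, 2 and 1 counts, or 155, 117, 0, 56.1, 44.7 and 39.2 CPM. Its ratios were 0.731 (0.582 to 0.915) with anti-PD-1 and 0.584 (0.346 to 0.932) with the combination, neither of them called. The intervals of Psmb5 and Psmb6 in the combination pool did not overlap. As shown above, both genes carry the antioxidant response element core in their promoter windows, and any part of it in these ratios was not tested.

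The structural beta genes with the most counts were low in the combination pool. Psmb1 had 1217, 576, 22, 63, 32 and 2 counts and was called lower there at 0.393 (0.300 to 0.507). It was also called lower with KS100+anti-PD-1, at 0.146 (0.0176 to 0.527) of control and 0.120 (0.0139 to 0.470) of the KS100 pool, where it was the only proteasome gene with enough counts to test. The background for that last pair was 34.0% called lower. Psmb4 had 925, 471, 14, 39, 11 and 1 counts. It was called lower in the combination pool at 0.320 (0.226 to 0.441), the lowest beta gene there, and with KS100+anti-PD-1 at 0.0957 (0.00242 to 0.535). Psmb2 had 43, 21, 5, 3, 0 and 0 counts and was the gene called higher with AZD5363+MK1775, at 6.47 (1.998 to 16.3), a value that rests on 5 counts. Psmb3 was not called in any pair.

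**Figure D4:**
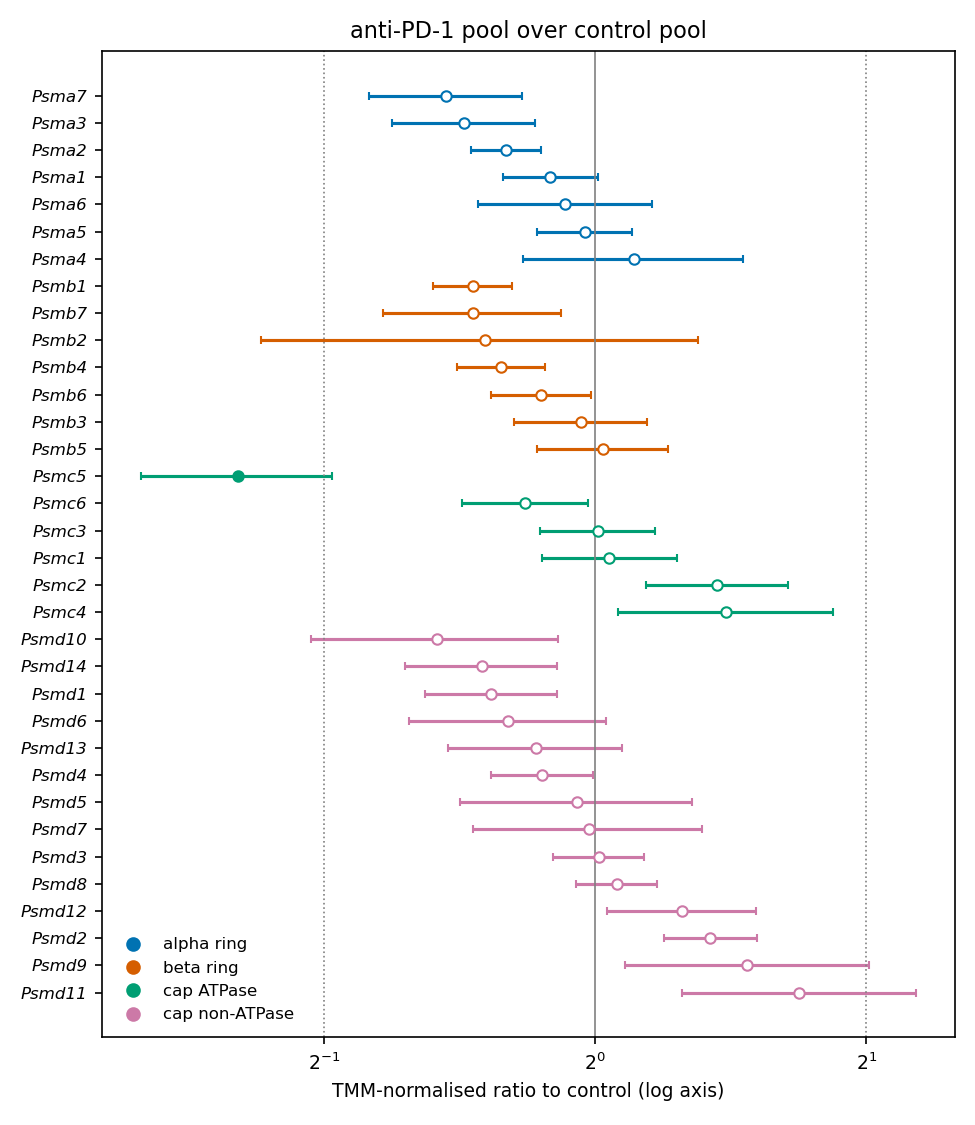
Ratio of the anti-PD-1 pool to the control pool for the 34 proteasome genes tested, by class, on a log axis after TMM scaling, with 95% exact conditional intervals. The filled point, Psmc5 at 0.401, is the gene called lower; 12 of the 14 core genes lie left of 1 and the cap genes spread to both sides.

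Among the ATPases, Psmc5 was the gene called against control, lower with anti-PD-1 and higher in the combination pool. Psmc5 (chromosome 11, 106256154 to 106263120) had 331, 86, 11, 95, 5 and 0 counts. With anti-PD-1 it was called lower at 0.401 (0.313 to 0.510), while the other 5 ATPases of that pool ran from 0.837 to 1.40. In the combination pool it was called higher, at 2.18 (1.72 to 2.75) times control and 5.43 (4.02 to 7.36) times the anti-PD-1 pool. With library totals it was still called higher against the anti-PD-1 pool but not against control. Psmc3 had 462, 301, 2, 90, 12 and 1 counts and Psmc6 had 443, 240, 2, 55, 5 and 0. Neither was called against control, with combination ratios of 1.48 (1.17 to 1.86) for Psmc3 and 0.943 (0.699 to 1.25) for Psmc6. Psmc1 had 335, 225, 1, 82, 3 and 3 counts and a combination ratio of 1.86 (1.44 to 2.37), under the size asked for. Psmc1 and Psmc3 were called higher in the combination pool against AZD5363+MK1775, at 11.2 (1.96 to 448) and 6.15 (1.65 to 51.6), from 1 and 2 counts in that pool. The first of these calls was lost with library totals and nuclear protein-coding totals, and the second with those and with DESeq2 size factors. Psmc2 and Psmc4 were not called in any pair. Psmc4 had a combination ratio of 1.72 (1.08 to 2.65) to control, and its interval and those of Psmc1 and Psmc3 overlapped that of Psmc5.

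The non-ATPase genes of the cap held the extremes of the combination pool. Psmd11 (chromosome 11, 80428615 to 80473248), a scaffold that joins cap and core, had 89, 97, 1, 79, 1 and 2 counts. Its ratio was 1.68 (1.25 to 2.27) with anti-PD-1 and 6.74 (4.92 to 9.23) with the combination, so it was the highest proteasome gene in both comparisons. The last 300 bases of Psmd11 match the pseudogene Gm14048 at 99.3% identity, so this single value is uncertain. Psmd7, the partner of the deubiquitinating subunit Psmd14, had 124, 79, 0, 56, 3 and 0 counts. It was at 3.43 (2.46 to 4.74) times control in the combination pool and no close match to its end was found. Both were called higher in that pool with library totals too. Psmd5, an assembly chaperone, was the lowest with 123, 76, 0, 1, 1 and 0 counts. Its combination ratio of 0.0618 (0.00155 to 0.351) rests on 1 count.

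Psmd3 and Psmd8, the non-ATPase genes with the most control counts, had combination ratios below 1. Psmd3 had 750, 490, 9, 45, 7 and 0 counts and was called lower there at 0.456 (0.330 to 0.616), and at least 2.82-fold lower with KS100+anti-PD-1. Psmd8 had 912, 624, 7, 70, 6 and 2 counts. It was called lower with KS100 at 0.304 (0.111 to 0.663), a call lost with DESeq2 size factors and nuclear protein-coding totals, and its combination ratio was 0.583 (0.451 to 0.744), not called. Psmd4, a ubiquitin receptor, had 644, 364, 8, 50, 15 and 0 counts and was at least 2.43-fold lower with KS100+anti-PD-1. Psmd1, a large scaffold, had 421, 209, 7, 86, 5 and 1 counts and was called higher in the combination pool against anti-PD-1 at 2.02 (1.56 to 2.61), but not with the other scalings tried. Against control its combination ratio was 1.55 (1.22 to 1.96), and that of Psmd2, another large scaffold, 1.98 (1.65 to 2.37), neither of them called; the ends of both match other genes, so these values are uncertain. The other 7 non-ATPase genes were not called in any pair. Against anti-PD-1, 6 genes were called lower with KS100+anti-PD-1 (Psma2, Psma5, Psmb6, Psmd3, Psmd4 and Psmd8), beside 3.33% of all genes tested called higher and 3.06% lower, and 18 of the 34 were at 0 there. With DESeq2 size factors the split was 1 higher (Psma3) and 3 lower.

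Adding the antibody to AZD5363+MK1775 gave a summed ratio of 1.24 (1.07 to 1.45), whose direction turned to 0.715 (0.616 to 0.835) with library totals and 0.903 (0.777 to 1.05) with nuclear protein-coding totals. The other genes of like counts summed to 1.40 (1.38 to 1.43) in this pair, and 77.9% of all genes tested had a ratio above 1. The value of 1.24 is thus not a rise particular to the proteasome genes. Of 28 genes tested 6 were called higher and 1 lower, beside 11.1% and 3.72% of all genes tested, and 0 higher and 4 lower with library totals, 0 and 3 with nuclear protein-coding totals. The genes called higher were Psma4, Psma7, Psmc1, Psmc3, Psmd7 and Psmd11, and the gene called lower was Psmb6. Adding the antibody to KS100 gave 0.407 (0.285 to 0.570), on 42 against 198 counts. The other genes of like counts summed to 0.716 (0.697 to 0.736) in that pair. The antibody's effects in these arms share no pool, and the difference between them was not tested.

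No proteasome gene passed the test that pools information over the 6 libraries. This edgeR quasi-likelihood fit took inhibitor arm and antibody as additive terms, with pools of other treatments serving as replicates and 2 residual degrees of freedom, and 33 of the 36 genes entered it. For the antibody effect, 0 of 33 passed a Benjamini-Hochberg adjusted p of 0.05, beside 0.143% of 4912 genes, and 0 at an unadjusted p under 0.05. For the AZD5363+MK1775 arm, 0 were called beside 1.34%, with 1 higher and 1 lower at an unadjusted p under 0.05. The lowest adjusted p from edgeR was 0.251, for Psmd5 at a log2 difference of -4.05 (SE 1.55). For the KS100 arm, 0 were called beside 7.70%, and 30 of 33 genes had an effect below 0. The median log2 effect was -1.45 for the proteasome genes and -0.47 for all genes fitted, and 7 genes had an unadjusted p under 0.05, all lower. Psmb5 had the lowest edgeR adjusted p, 0.106, at a log2 difference of -3.56 (SE 1.40). DESeq2's Wald test also called 0 in each effect, with 1, 0 and 3 genes at an unadjusted p under 0.05. It tested 35, 15 and 34 of the proteasome genes.

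The exchange partners of the catalytic subunits outnumbered them in the combination pool. Psmb8, Psmb9 and Psmb10, which replace Psmb5, Psmb6 and Psmb7, took a small part of the paired catalytic counts in the pools without inhibitor, 6.88% (5.60 to 8.36, 94 of 1366 counts) in control and 5.93% (4.37 to 7.83) with anti-PD-1. In the combination pool they were 58.1% (51.9 to 64.0, 155 of 267 counts). This share also does not depend on scaling. By pair, Psmb8 against Psmb5 took 1.63%, 1.65% and 57.6% in the same 3 pools, Psmb9 against Psmb6 took 3.91%, 1.06% and 53.5%, and Psmb10 against Psmb7 took 19.8%, 24.5% and 66.1%. Psmb10 thus held the largest part of its pair in all 3 pools, and its intervals overlapped those of the other pairs in the combination pool only. The AZD5363+MK1775 pool had 0 of 20 paired counts, which allows up to 16.8% by the exact interval, and the KS100 pools had 1 of 11 and 0 of 1. Of the 2 partners tested with anti-PD-1 against control, Psmb9 was called lower, on 4 against 27 counts. Of all genes tested in that pair 2.14% were called lower. Against control, 14.9% of all genes tested were called higher in the combination pool with TMM. All 3 partners were called higher there with each scaling tried. Skeletal muscle markers there were at 243 times control and T cell markers at 16.0 times (6.91 to 40.3, on 19 against 9 counts). Fibroblast markers were at 6.23 times control, macrophage markers at 5.35, endothelial markers at 1.10, melanocyte markers at 0.782 and erythroid markers at 0.183. The part of these cell types in the immunoproteasome shares was not tested. The shares are of RNA counts and do not show which subunits the cores held.

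**Figure D5:**
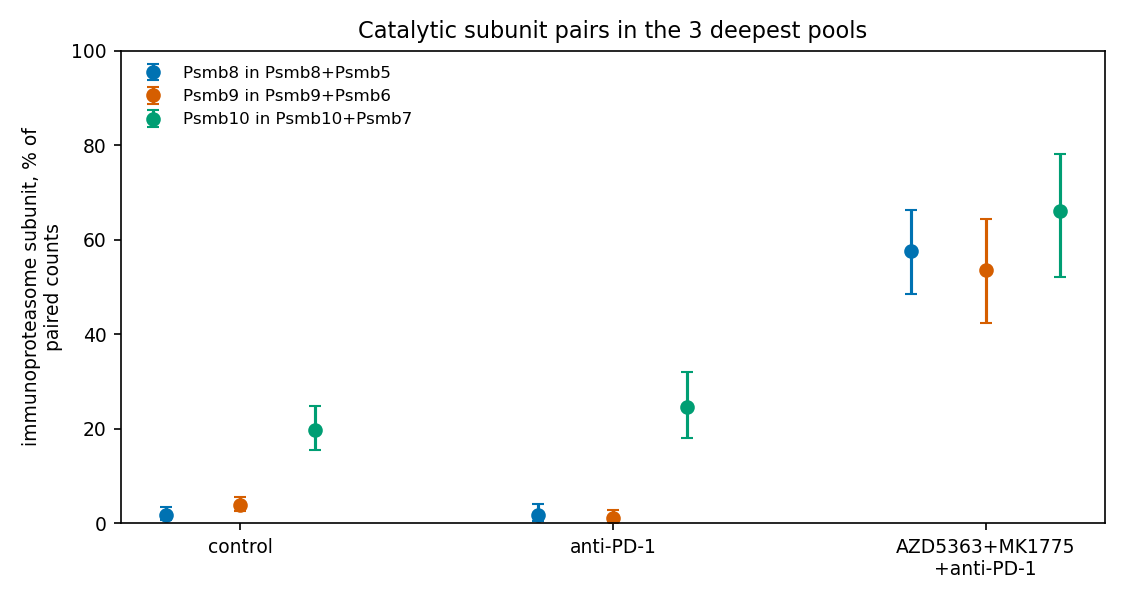
Immunoproteasome subunit as a share of its catalytic pair (percent of the pair's counts, vertical axis) in the 3 deepest pools, with 95% exact binomial intervals. All 3 pairs lie between 53.5% and 66.1% in the combination pool (AZD5363+MK1775+anti-PD-1), and at 24.5% or less in the other pools shown.

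Other genes of the pathway were counted by the same rule. Of the 5 activator and inhibitor genes, 3 were called higher and 1 lower in the combination pool against control, where 14.9% of all genes tested were called higher and 8.02% lower. These were Psme1 at 4.22 (2.98 to 5.93) and Psme2 at 5.24 (2.81 to 9.59), the interferon-inducible activator ring, Psme4 at 2.58 (1.94 to 3.41), a nuclear activator, and Psmf1 at 0.202 (0.0410 to 0.605), an inhibitor of the core. None of the 5 was called in the other comparisons with control. Of the 5 core assembly genes, none was called higher in any comparison with control. Pomp, the maturation factor that is consumed as a core is completed, had 2347, 530, 15, 105, 36 and 12 counts. It was called lower in 3 comparisons, at 0.349 (0.317 to 0.383) with anti-PD-1, 0.355 (0.199 to 0.587) with AZD5363+MK1775 and 0.340 (0.277 to 0.413) with the combination. Psmg4, an assembly chaperone, was called lower with the combination at 0.171 (0.0621 to 0.377). In these 3 pairs 1, 1 and 2 of the 5 assembly genes were called lower, beside 2.14%, 1.28% and 8.02% of all genes tested.

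Of 13 other cap and cap-bound genes in the table, 12 were tested against control, and 2 of them were called higher in the combination pool, beside the 14.9% of all genes. The deubiquitinase Usp14 was called higher in the combination pool at 2.13 (1.56 to 2.87), as was the adaptor Ecpas at 6.61 (4.21 to 10.3), and Zfand5 was called lower with KS100 at 0.0778 (0.00197 to 0.435), from 1 count. Among the genes that encode ubiquitin itself, Ubb had 3659, 2433, 28, 338, 16 and 1 counts and was called lower with AZD5363+MK1775 at 0.426 (0.282 to 0.616), with KS100 at 0.202 (0.115 to 0.328) and with KS100+anti-PD-1 at 0.0242 (0.000612 to 0.135). Rps27a, which fuses ubiquitin to a ribosomal protein, was called lower with anti-PD-1 at 0.394 (0.340 to 0.455) and with the combination at 0.350 (0.252 to 0.475), and higher with KS100 at 2.13 (1.53 to 2.89). Of all genes tested 2.14% were called lower with anti-PD-1, 1.28% with AZD5363+MK1775 and 8.02% with the combination. With KS100 4.50% were called higher and 1.86% lower, and with KS100+anti-PD-1 2.86% were called lower. Ubb was the gene of these lists that edgeR called, in the KS100 arm.

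Of 9 tested ubiquitin activation and conjugation genes, Ube2r2 was called higher with AZD5363+MK1775 at 3.10 (1.71 to 5.21). Ube2d3 was called lower with the combination at 0.370 (0.279 to 0.481) and with KS100+anti-PD-1 at 0.149 (0.0180 to 0.538). Each is 1 of 9 in its pair. Of all genes tested 1.65% were called higher with AZD5363+MK1775, 8.02% lower with the combination and 2.86% lower with KS100+anti-PD-1. Of the 8 genes of the p97 segregase, which extracts tagged proteins before degradation, 2 were called higher in the combination pool, again beside 14.9%: Ubxn1 at 2.91 (2.01 to 4.15) and Ubxn4 at 3.34 (2.08 to 5.24). None of the 8 was called lower in a comparison with control. Of 9 genes of transcription factors and processing enzymes known to act on proteasome genes, only Stat3 was called against control, higher in the combination pool at 2.86 (2.40 to 3.41), which is 1 of 9 beside 14.9%. Nfe2l1, the factor that induces proteasome genes when the complex is inhibited, had 115, 109, 0, 32, 1 and 0 counts, and its combination ratio of 2.11 (1.38 to 3.15) was not called.

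Several of these pathway calls depended on scaling. In the combination pool Usp14, Psme4, Ubxn1, Ubxn4 and Stat3 were no longer called higher than control with library totals, and Usp14 not with nuclear protein-coding totals either. Psme1, Psme2 and Ecpas were called higher, and Psmf1, Pomp, Psmg4, Rps27a and Ube2d3 lower, with every scaling tried. With AZD5363+MK1775 the call of Pomp was lost with nuclear protein-coding totals, that of Ubb with those and with DESeq2 size factors, and that of Ube2r2 with TMM over all genes. The call of Rps27a with KS100 was lost with library totals and with TMM over all genes.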

How the data were processed

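The deposited table holds whole-number read counts per mouse gene that the authors made from QuantSeq 3′ libraries, using bcl2fastq, HISAT2 2.1.0, HTSeq and the build GRCm38, per the submitters' processing notes. Annotation, strand setting and handling of multiply matching reads are not given there or in the labels. Of 43721 rows, 92 are spike-in names, all at 0, and were left out. GENCODE M21 matched 42548 genes and gave symbols and 1-based coordinates. QuantSeq reads 1 tag per transcript, so counts were not divided by length.

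The proteasome genes and the lists were chosen with earlier results of these data known, and list membership came from general knowledge. Ratios used edgeR 4.0.16 TMM sizes over the 4912 genes kept by filterByExpr, in R 4.3.3. The size rule (20 counts, 2-fold, interval beyond 1.5-fold), the additive quasi-likelihood fit (common dispersion 0.215) and their code were tested on simulated data. The simulation for the fit used a lower dispersion than these data and large changes only. It checked the code and does not show how well the fit finds changes here. SE is the log2 difference divided by the square root of F. Values are given in every pool for Psmb5, Psmb6, Psmb7, each gene called in a pair or fit, and the 2 genes of each class with most control counts, and of the other lists for genes called; Pomp, Ubb and Nfe2l1 counts were added after their values were seen. Alternatives were DESeq2 1.42.0 size factors and Wald test, library totals, nuclear protein-coding totals, other count minimums, no filter, each pool left out and, chosen after seeing the data, TMM over all genes, and all scalings for the other lists.

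In 9 genes (Psma3, Psma4, Psma5, Psmb3, Psmb5, Psmb11, Psmd1, Psmd2, Psmd11) the last 300 bases match another annotated gene at 95% or more over at least 100 bases, and Psma4, Psma5, Psmb7, Psmc3, Psmd1, Psmd3, Psmd9 and Psmd13 share exon bases with a gene on the opposite strand. Their single values are uncertain. Number of tumours per pool was not used here. A gene of the lists is not reported here.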

Additional observations from a re-analysis of the deposited data

Results flagged for a closer look

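The proteasome sum with anti-PD-1, over that without it, lay on opposite sides of 1 in different arms. The summed ratio was 0.906 without inhibitor, 1.24 with AZD5363+MK1775 and 0.407 with KS100. The other genes of like counts lay on the same sides of 1, at 0.983, 1.40 (1.38 to 1.43) and 0.716 (0.697 to 0.736). The change of side is therefore not particular to the proteasome genes. For the cap the summed ratio was 1.79 (1.42 to 2.27) with AZD5363+MK1775 against 0.388 (0.216 to 0.659) with KS100. For the cap ATPases the values were 3.26 (1.98 to 5.77) and 0.256 (0.0655 to 0.726), and for the non-ATPase genes 1.42 (1.10 to 1.86) and 0.462 (0.231 to 0.858). These differences between arms were not tested, since each arm has 1 pool with and 1 without the antibody. With library totals the sum in the AZD5363+MK1775 arm was 0.715 and that of the non-ATPase genes 0.819, while the cap stood at 1.03 and the ATPases at 1.88.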

How the results depend on the processing

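Library scaling was the choice that moved most values. A change of scaling moves all genes of a pool alike, and shares of all genes called were taken with TMM only. The counts called with other scalings are therefore not set against such a share. With library totals the summed ratio to control was 0.931 for anti-PD-1, 0.559 for AZD5363+MK1775+anti-PD-1, 0.483 for KS100 and 0.180 for KS100+anti-PD-1, with 1 gene called for AZD5363+MK1775, 5 for KS100 and 11 for KS100+anti-PD-1. On that scale the ratios to anti-PD-1 were 0.601 for AZD5363+MK1775+anti-PD-1 and 0.193 for KS100+anti-PD-1 (12 called), and AZD5363+MK1775+anti-PD-1 over AZD5363+MK1775 turned to 0.715, with 4 called. With nuclear protein-coding totals AZD5363+MK1775 stood at 0.923 (1 called), AZD5363+MK1775+anti-PD-1 at 0.833, its ratio to anti-PD-1 at 0.899 and its ratio to AZD5363+MK1775 at 0.903, again turned, with 3 called, and KS100 had 0 called. With DESeq2 size factors anti-PD-1 stood at 0.932, 1 gene was called for AZD5363+MK1775 and 0 for KS100. With TMM over all genes AZD5363+MK1775 was at 0.607, KS100 at 0.516 (5 called), KS100+anti-PD-1 at 0.182 (11 called), its ratio to anti-PD-1 at 0.199 (12 called) and AZD5363+MK1775+anti-PD-1 over AZD5363+MK1775 at 1.48. For KS100+anti-PD-1 against KS100, 2 genes were called with a minimum of 10 counts and 2 with none, since more genes were tested. By single pairs, the immunoproteasome share was 1.63% (Psmb8), 3.91% (Psmb9) and 19.8% (Psmb10) in control, 1.65%, 1.06% and 24.5% with anti-PD-1, 66.1% for Psmb10 with AZD5363+MK1775+anti-PD-1, and 0% for Psmb8 and 0% for Psmb10 with KS100. With no filter the edgeR fit called 0 proteasome genes in each effect. DESeq2's Wald test also called 0, but it tested only 15 of them in the AZD5363+MK1775 arm. Fits with 1 pool left out keep only 1 pool in the arm it came from (no inhibitor, AZD5363+MK1775 or KS100) and 1 residual degree of freedom. Between 20 and 34 proteasome genes entered those fits, and their calls are not counted here. No paired analysis was possible because the labels give 1 pool per treatment. The cause of each shift was not tested. Depth limits the 3 shallow pools, where most proteasome genes had under 20 counts.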
